A study of Mus musculus with 10 samples.

Results

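Polyamine genes were examined in the gastrocnemius, a calf muscle, of mice that lost myostatin in adulthood and of control mice. Members were the probe sets of the array annotated to a single symbol among 10 genes that make, break down or regulate polyamines: Odc1, Amd1, Amd2, Srm, Sms, Sat1, Smox, Paox, Oaz1 and Azin1. Of these 10 genes, 6 had such a probe set (Odc1, Srm, Sat1, Smox, Oaz1 and Azin1), among 18193 genes with one in the whole series. They had 11 probe sets, and 10 of these passed the filter, a mean log2 intensity of at least 4 over all arrays. A further 4 probe sets listed a member together with its pseudogene, a non-coding copy: 3 for Sms and Sms-ps and 1 for Oaz1 and Oaz1-ps. They are described apart and are not counted as members. Sms was represented by shared probe sets alone, and Amd1, Amd2 and Paox are not analysed here.

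Each of the 10 arrays came from 1 male mouse of 7.5 months on the C57BL/6 background. All 10 mice, controls included, carried CAGG-CreER, a transgene for a Cre recombinase that tamoxifen activates, and all received 8 tamoxifen injections from 4 months of age. Both groups are named here by their genotype: 5 knockout mice had floxed myostatin genes (Floxed_Mstn) and 5 control mice had normal ones (WT_Mstn). The CAGG promoter is active in most cell types, so recombination was not aimed at muscle fibres alone. No probe set was annotated to Mstn, so the arrays give no check of the deletion, and no control here lacked Cre or tamoxifen.

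Polyamines (putrescine, spermidine and spermine) are small positively charged molecules that bind nucleic acids and are needed for cell growth and translation. Ornithine decarboxylase (Odc1) makes putrescine, spermidine synthase (Srm) and spermine synthase (Sms) lengthen it with aminopropyl groups from decarboxylated S-adenosylmethionine, and Amd1 makes that donor. Spermine oxidase (Smox), the acetyltransferase Sat1 and the oxidase Paox convert the longer polyamines back. Antizyme (Oaz1) binds ornithine decarboxylase and sends it to the proteasome, and the antizyme inhibitor Azin1, a relative of Odc1 without enzyme activity, takes antizyme away. In skeletal muscle Odc1, Amd1 and Smox are known to respond to androgens, and Smox falls in several kinds of muscle wasting.

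No polyamine gene passed the test in knockout muscle: 0 of 10 member probe sets had an adjusted p under 0.05 (limma, Benjamini-Hochberg over all 21154 probe sets tested), where 0.0993% of all probe sets did. The highest values relative to control were those of Odc1, 1.58-fold to 1.74-fold on its 3 probe sets. At an unadjusted p under 0.05 the count was 3 of 10 member probe sets, all of Odc1 and higher in knockouts, against 7.69% of all probe sets in either direction and 3.6% in this one. The 3 share a target transcript. The 3 probe sets shared by Sms and its pseudogene were also at an unadjusted p under 0.05, at 1.21-fold to 1.37-fold. Of the 10 member probe sets 6 had higher and 4 lower means in knockouts, where 49.2% of all probe sets had a higher one. Their median difference was 0.17 (log2) against -0.0029 over all probe sets tested. These 10 are not independent, since 3 are of Odc1 and 2 of Smox. On the brightest probe set per gene the differences were 0.66 (Odc1), 0.29 (Smox), 0.05 (Oaz1), -0.04 (Azin1), -0.19 (Sat1) and -0.23 (Srm).

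The upstream 250 bases of Odc1, Smox and Sms are shown because these genes, or probe sets shared with them, had the highest knockout values relative to control, and Odc1 is a known target of the Myc factor. Sequences are from RefSeq, build GRCm38.p6, read 5′ to 3′ on the gene's strand up to the base before a transcript start of the RefSeq promoter table. The gene span in RefSeq begins further upstream for Odc1 and Smox, so the last 65 bases of the Odc1 window and the last 4 of the Smox window lie inside it. Capitals mark each match to the GC box (GGGCGG) or the E-box (CACGTG), the sequence that Myc and Max bind, on either strand. The windows are chr12:17544623-17544872 (plus strand) for Odc1, chr2:131491612-131491861 (plus strand) for Smox and chrX:157492288-157492537 (minus strand) for the outer start of Sms.
Odc1: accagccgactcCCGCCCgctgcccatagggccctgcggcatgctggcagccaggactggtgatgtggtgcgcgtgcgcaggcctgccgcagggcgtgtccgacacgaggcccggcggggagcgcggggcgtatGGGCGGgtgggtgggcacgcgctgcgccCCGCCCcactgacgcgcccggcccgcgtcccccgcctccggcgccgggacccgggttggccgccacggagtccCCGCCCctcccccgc
Smox: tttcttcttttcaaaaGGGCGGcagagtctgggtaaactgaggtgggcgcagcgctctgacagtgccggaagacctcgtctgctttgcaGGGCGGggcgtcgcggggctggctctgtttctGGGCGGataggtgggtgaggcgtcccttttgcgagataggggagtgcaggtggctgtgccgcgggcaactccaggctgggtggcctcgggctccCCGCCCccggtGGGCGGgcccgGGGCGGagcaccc
Sms: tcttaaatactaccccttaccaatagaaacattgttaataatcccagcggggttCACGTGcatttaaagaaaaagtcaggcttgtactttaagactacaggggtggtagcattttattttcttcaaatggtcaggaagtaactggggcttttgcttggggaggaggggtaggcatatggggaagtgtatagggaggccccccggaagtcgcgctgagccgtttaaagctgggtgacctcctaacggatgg
The Odc1 window held 4 GC boxes and no E-box, and the Smox window held 6 GC boxes and no E-box. The Sms window held 1 E-box, which starts 196 bases upstream, and no GC box, whereas the inner Sms start had 4 GC boxes and no E-box. GC boxes were not confined to genes with higher knockout means. The window of Sat1, which had a lower mean in knockouts, held 2 GC boxes and no E-box, and that of Oaz1 held neither motif (sequences not shown). Over 32851 promoter windows of this length, 32.7% held a GC box, 6.02% an E-box and 12.4% a TATA box (TATAAA, either strand), and neither Odc1, Smox nor Sms held a TATA box. Odc1 was rich in G and C, which made up 80% of its window, against 68% for Smox, 47.2% and 75.2% for the outer and inner Sms starts, and a median of 52.4% over all windows. Letters that match a motif are a description of these windows, and no binding was measured. Bases outside the windows were not searched, so the lack of an E-box in a window does not speak for the rest of the gene.

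Among the enzymes of synthesis, Odc1 encodes the first and highly regulated step. Its brightest probe set (1437711_x_at) had log2 intensities of 11.27, 11.50, 11.83, 12.05 and 12.23 in controls 1 to 5, and 12.32, 12.48, 12.43, 12.60 and 12.35 in knockouts 1 to 5. The groups did not overlap, although control 5 lay within 0.1 of the lowest knockout and the controls were spread more widely than the knockouts. The means were 11.78 ± 0.39 and 12.44 ± 0.11 (SD, n = 5 each), a difference of 0.66 ± 0.17 (log2, SE, 95% interval 0.28 to 1.05). This was 1.58-fold (interval 1.21 to 2.06) and did not pass the test, with an adjusted p of 0.332 (limma). Groups that did not overlap were seen for 2.06% of all probe sets, and for 1 of the 10 member probe sets. The suffix x in the name of this probe set means that some of its probes also match other transcripts.

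The remaining Odc1 probe sets gave like differences but overlapping groups. Probe set 2 (1438761_a_at) read 10.83, 10.58, 10.88, 11.48 and 11.69 in controls and 11.63, 11.99, 11.91, 11.99 and 11.48 in knockouts, with 3 knockouts above every control. Its difference was 0.71 ± 0.22 (SE, adjusted p = 0.468, limma). Probe set 3 (1427364_a_at) read 7.91, 7.64, 7.42, 8.68 and 8.64 in controls and 8.71, 9.04, 9.13, 8.84 and 8.55 in knockouts, with 4 knockouts above every control. Its difference was 0.80 ± 0.26 (SE, adjusted p = 0.469, limma). On all 3 probe sets controls 4 and 5 were the highest of the controls, near the knockouts, and controls 1 to 3 the lowest of the 10 arrays. The SD of controls was 3.59, 2.03 and 2.44 times that of knockouts on probe sets 1, 2 and 3. The probe sets followed each other over the 10 arrays, with Pearson's r of 0.932 between sets 1 and 2, 0.834 between 1 and 3, and 0.947 between 2 and 3.

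**Figure D1:**
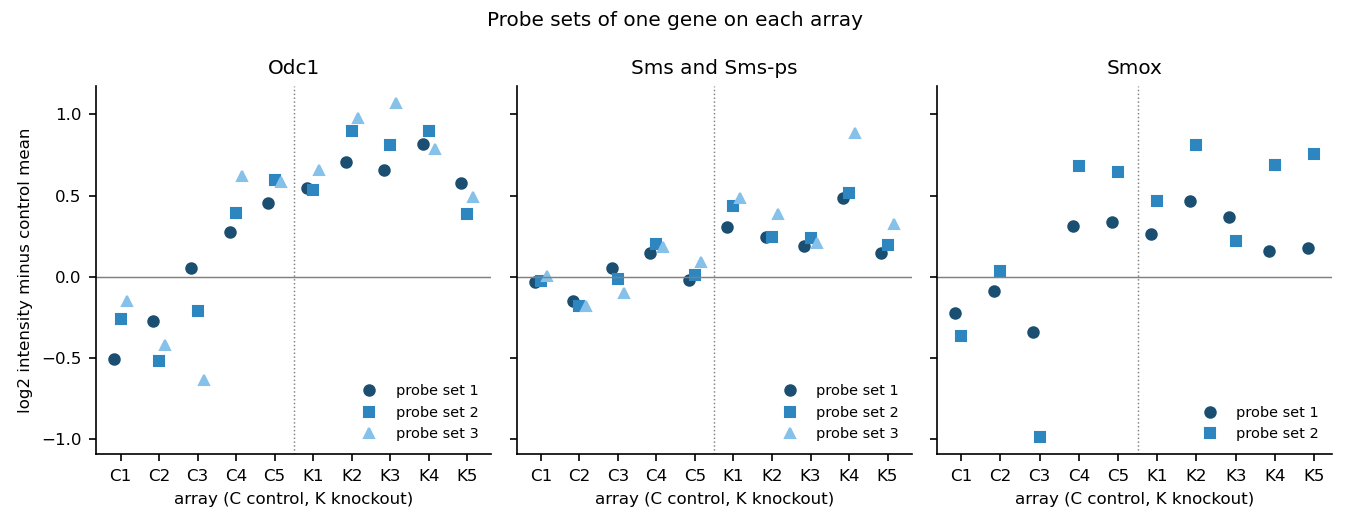
Log2 intensity of each probe set minus its mean over controls, for Odc1, the probe sets shared by Sms and Sms-ps, and Smox, on control arrays 1 to 5 (C1 to C5) and knockout arrays 1 to 5 (K1 to K5). Controls 4 and 5 sit near the knockouts for Odc1 and Smox. For the shared Sms probe sets control 4 is the highest control, and on probe sets 1 and 2 it lies just above knockout 5.

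Srm, which joins an aminopropyl group to putrescine, was not higher along with Odc1. Its probe set (1421260_a_at) read 7.77, 7.91, 7.36, 8.07 and 7.64 in controls and 7.08, 7.32, 7.28, 7.69 and 8.20 in knockouts. The groups overlapped, and knockout 5 was the highest of all arrays while knockouts 1 to 3 were the lowest. The difference was -0.23 ± 0.22 (log2, SE, interval -0.71 to 0.25, adjusted p = 0.905, limma).

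The 3 probe sets that list Sms and Sms-ps could carry signal from spermine synthase, from the pseudogene, or both. The brightest (1434190_at) read 12.94, 12.82, 13.03, 13.12 and 12.96 in controls and 13.28, 13.22, 13.16, 13.46 and 13.12 in knockouts. All knockouts but number 5 lay above every control, and knockout 5 fell just short of control 4. The difference was 0.27 ± 0.09 (log2, SE, interval 0.08 to 0.46, adjusted p = 0.469, limma). The second (1421052_a_at) differed by 0.33 ± 0.09 (adjusted p = 0.417), again with knockout 5 just short of control 4. The dimmest of the 3 (1428699_at) read 9.96, 9.78, 9.86, 10.14 and 10.05 in controls and 10.45, 10.35, 10.17, 10.84 and 10.29 in knockouts, so its groups did not overlap. Its difference was 0.46 ± 0.13 (log2, SE, adjusted p = 0.401). Pearson's r between pairs of the 3 over the 10 arrays was between 0.948 and 0.977. In contrast to Odc1, controls varied no more than knockouts here: the SD of controls was 0.837, 0.952 and 0.559 times that of knockouts.

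**Figure D2:**
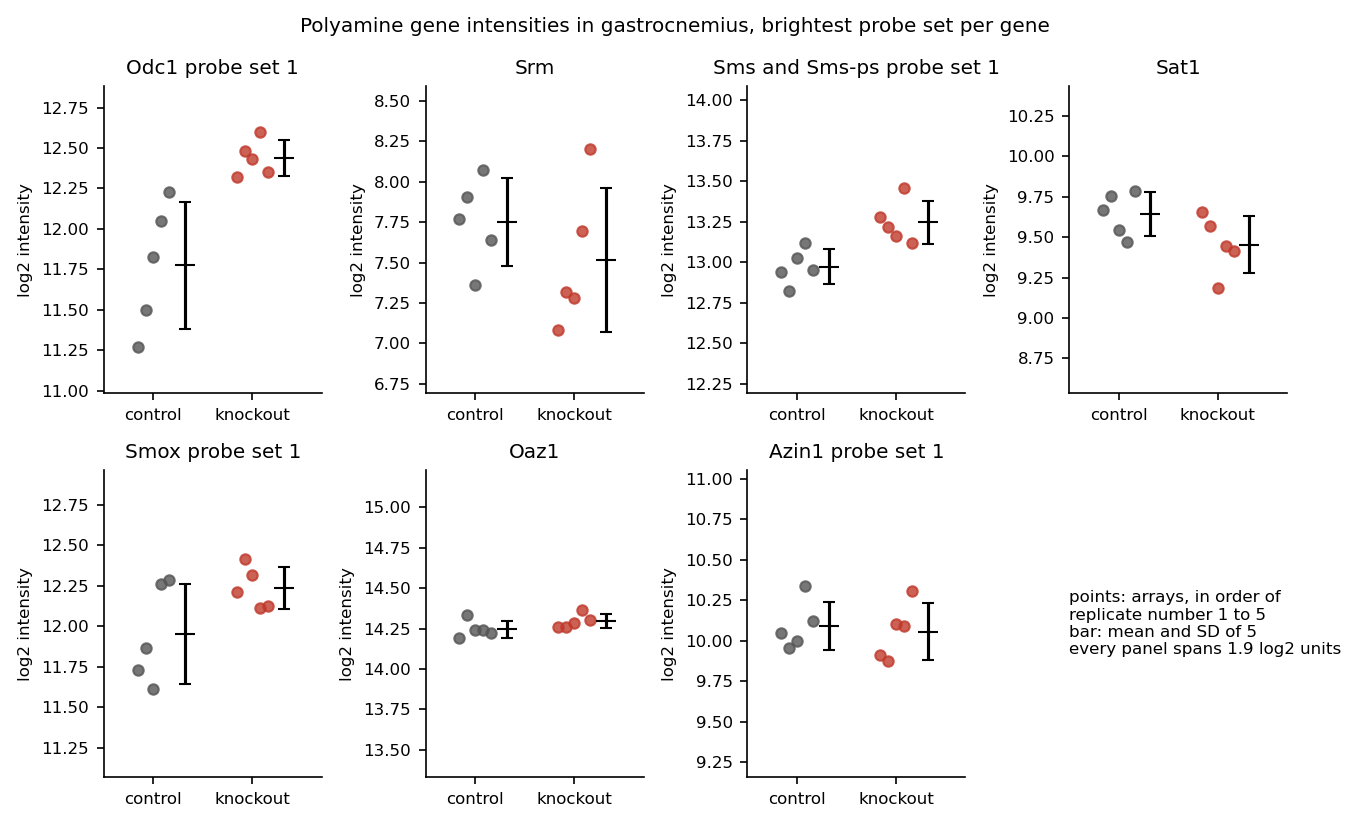
Log2 intensity on each array (points, by replicate number) with the mean and SD of the 5 arrays per group, for the brightest probe set of each measured gene. Odc1 groups are apart at 11.27 to 12.23 and 12.32 to 12.60, and the Oaz1 points are the most tightly packed.

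Of the genes that convert polyamines back, Smox encodes the oxidase that turns spermine into spermidine. Its brighter probe set (1424268_at) read 11.73, 11.86, 11.61, 12.26 and 12.29 in controls and 12.21, 12.42, 12.32, 12.11 and 12.13 in knockouts. Controls 1 to 3 were the 3 lowest arrays, and controls 4 and 5 lay inside the range of the knockouts. The difference was 0.29 ± 0.14 (log2, SE, interval -0.04 to 0.61, adjusted p = 0.718, limma). The dimmer probe set (1446509_at) read 8.40, 8.80, 7.78, 9.45 and 9.41 in controls and 9.24, 9.58, 8.99, 9.46 and 9.53 in knockouts, again with controls 1 to 3 below controls 4 and 5. It differed by 0.59 ± 0.30 (SE, interval -0.09 to 1.27, adjusted p = 0.724). As for Odc1, the SD was larger in controls than in knockouts, 2.37 and 2.88 times.

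Sat1 encodes the acetyltransferase that marks spermidine and spermine for export or oxidation. Its probe set (1420502_at) read 9.67, 9.75, 9.55, 9.47 and 9.78 in controls and 9.65, 9.57, 9.19, 9.45 and 9.41 in knockouts. The groups overlapped, and 4 of the 5 knockouts lay below the control mean. The difference was -0.19 ± 0.10 (log2, SE, interval -0.42 to 0.04), with an adjusted p of 0.742 (limma).

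Among the regulators, Oaz1 was nearly level over the arrays. It read 14.19, 14.33, 14.24, 14.24 and 14.22 in controls and 14.26, 14.26, 14.28, 14.37 and 14.30 in knockouts (1436292_a_at), with a difference of 0.05 ± 0.06 (log2, SE, interval -0.08 to 0.18, adjusted p = 0.943, limma). The brightest intensity on any array was 16.07 (log2), so compression near the top of the scale cannot be told from a small difference. The probe set that lists both Oaz1 and Oaz1-ps (1428868_a_at) read 11.83 to 12.40 in controls and 11.82 to 12.32 in knockouts, a difference of -0.03 ± 0.13 (adjusted p = 0.991). Antizyme is set largely by a polyamine-driven frameshift in translation, which an array of transcripts does not read.

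Azin1 had 3 probe sets, of which 2 passed the filter. The brighter (1450714_at) read 10.05, 9.96, 9.998, 10.34 and 10.12 in controls and 9.91, 9.87, 10.10, 10.09 and 10.31 in knockouts, overlapping throughout. It differed by -0.04 ± 0.11 (log2, SE, interval -0.27 to 0.20, adjusted p = 0.987, limma), and the next (1422702_at) by -0.07 ± 0.19 (interval -0.49 to 0.35, adjusted p = 0.986). The last (1430984_at) lay near the floor of the scale, at 2.18 to 2.20 in controls and 2.18 to 2.30 in knockouts, and was outside the filtered fit. Without a filter it differed by 0.03 ± 0.02 (SE, adjusted p = 0.969, limma).

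**Figure D3:**
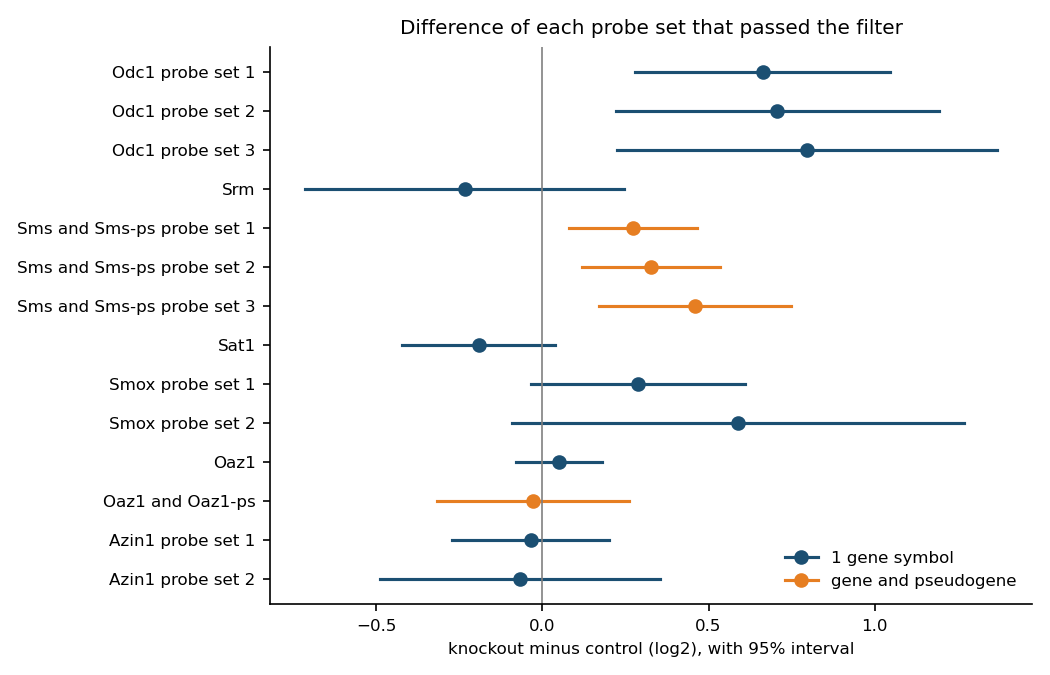
Difference between knockout and control (log2) with its 95% interval for the 14 probe sets that passed the filter, in the order synthesis, breakdown, regulators. The intervals of the 3 Odc1 probe sets and of the 3 shared by Sms and Sms-ps lie above 0 before adjustment, and none passed after it.

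The genes were also compared over the 10 arrays after each group's mean was removed. The brightest probe set of each of 7 (6 members and the shared Sms probe set) and the hybridisation controls were used. None of the 28 relations passed after Benjamini-Hochberg adjustment (lowest adjusted p 0.423, exact permutation within groups, two-sided). By Pearson's r, the lowest p belonged to Srm with Azin1 (r = 0.750, p = 0.0243, adjusted 0.423, exact permutation). Next came Srm with the hybridisation controls, a measure of the arrays (r = -0.758, p = 0.0302, adjusted 0.423, exact permutation). Odc1 and Smox had r = 0.655 (p = 0.182, adjusted 0.956) and Spearman's rho 0.467 (p = 0.300, adjusted 0.998), from the same exact permutation. Without the 2 arrays farthest from the Odc1 median, r was 0.387. It was 0.737 within control arrays and 0.0072 within knockout arrays, a difference that was not tested. Odc1 and the shared Sms probe set had r = 0.473 (p = 0.153, adjusted 0.956) and rho 0.661 (p = 0.0538, adjusted 0.635) by exact permutation, and r = 0.811 without 2 arrays.

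The genes whose brightest probe set varied most like a member's over the 10 arrays, group means removed, were found among 10278 named genes. For Odc1 they were Igf1 (r = 0.936), which encodes a growth factor of muscle, Pacs1 (0.900) and Cd40 (0.891). For Smox they were Pikfyve (0.938), Zmynd11 (0.922) and Tiprl (0.893), and for Sat1 Hltf (0.965), Olfm1 (0.915) and Samhd1 (0.914). Such r are the highest among all those genes over 10 arrays and are given as a description only. Group differences played no part in this likeness: Igf1 differed by -0.47 (log2, adjusted p = 0.716, limma) where Odc1 was 0.66 higher in knockouts.

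Beyond the members, 55 genes of polyamine supply, transport, use and control were listed, and 38 were measured above the filter. None passed the test (0 of 38, against 0.0993% of all probe sets), 16 had higher and 22 lower means in knockouts, and the median difference was -0.03. At an unadjusted p under 0.05 there were 4 of 38, against 7.69% of all probe sets, and groups did not overlap for 2 of 38, against 2.06%.

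Among the transporters, 2 of 9 had higher and 7 lower means. Slc7a2, the cationic amino acid transporter that brings in arginine and ornithine, read 9.24, 9.60, 9.38, 9.50 and 9.39 in controls and 9.70, 10.01, 9.83, 9.92 and 9.91 in knockouts. All 5 knockouts lay above all controls, a difference of 0.45 ± 0.09 (log2, SE, adjusted p = 0.150, limma). The other Slc7a2 probe sets gave 0.49 (adjusted p = 0.319) and 0.60 (adjusted p = 0.653). The last of these had a mean log2 intensity of 4.19, just above the filter of 4. Atp13a3, a polyamine transporter of endosomes, differed by 0.16 (adjusted p = 0.737), with -0.0033 on its second probe set.

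For arginine and ornithine, 5 of 12 listed genes were measured. Gamt, which makes creatine from guanidinoacetate, had 0.60 ± 0.23 (log2, SE, adjusted p = 0.577, limma) and Gatm, the arginine-using step before it, -0.23 ± 0.16 (adjusted p = 0.830). Among antizymes and oxidation, Aldh9a1, which oxidises the aminoaldehyde formed from putrescine, had 0.37 ± 0.11 (adjusted p = 0.425) and 0.51 on its second probe set (adjusted p = 0.502). The antizyme Oaz2 had 0.02 ± 0.06 (adjusted p = 0.986). In methionine and S-adenosylmethionine supply and salvage, 6 of 10 measured genes had higher means, led by Ahcy, which clears S-adenosylhomocysteine, at 0.22 ± 0.11 (adjusted p = 0.720), and Mtrr, which reactivates methionine synthase, at 0.14 ± 0.10 (adjusted p = 0.844).

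Spermidine is used to form hypusine on the translation factor eIF5A, and 2 of the 4 genes of this step had higher means. Dhps, the spermidine-using enzyme, had 0.14 ± 0.09 (log2, SE, adjusted p = 0.808, limma) and Eif5a2 -0.32 ± 0.29 (adjusted p = 0.902). Of the Myc network, 6 of 6 measured genes had lower means in knockouts. Mxd4, which pairs with Max and opposes Myc at E-boxes, read 10.47, 10.17, 10.17, 10.37 and 10.30 in controls and 10.15, 10.02, 10.09, 9.98 and 9.85 in knockouts, without overlap. Its difference was -0.28 ± 0.09 (adjusted p = 0.459, limma), and -0.16 on its second probe set (adjusted p = 0.979). Mga, another Max partner, had -0.15 ± 0.07 (adjusted p = 0.659) and -0.14 on its second probe set (adjusted p = 0.983).

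**Figure D4:**
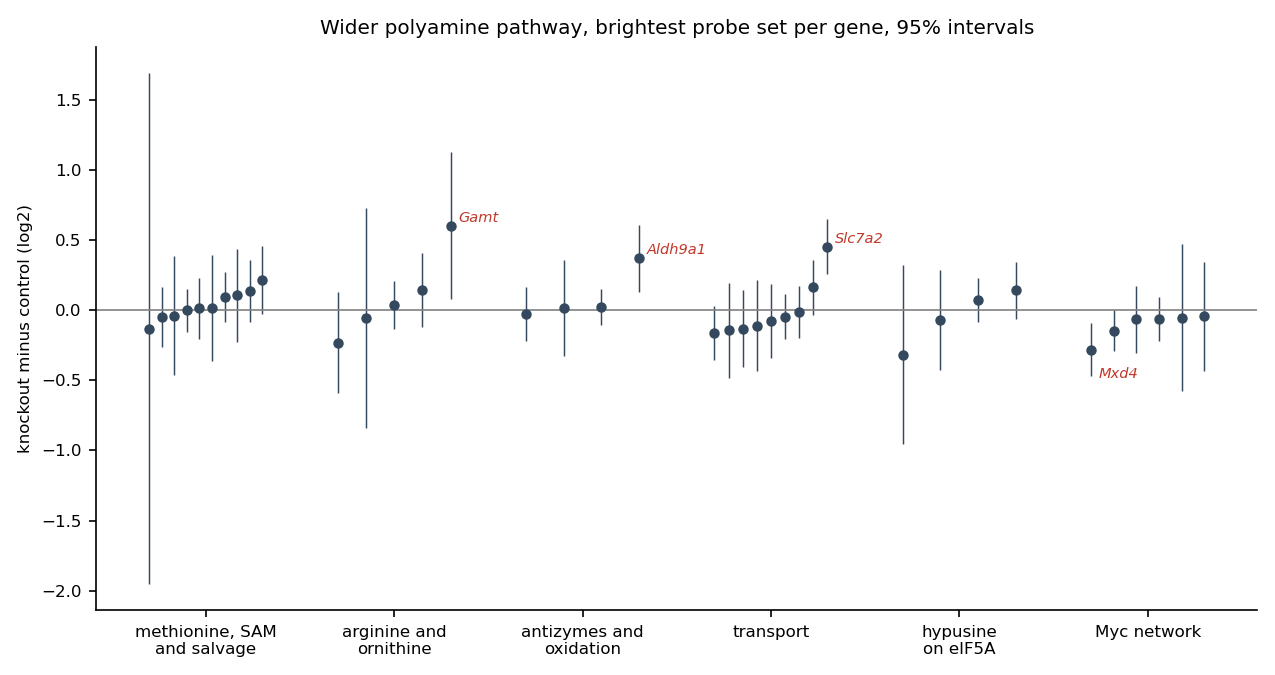
Difference between knockout and control (log2, points) with 95% intervals for the 38 measured genes of the wider pathway, ordered by size within each list. Names mark the 4 genes at an unadjusted p under 0.05, and none passed after adjustment.

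Over the whole series 21 of 21154 probe sets passed the test, 11 higher and 10 lower in knockouts. The tissue label was met by its markers: 10 of 10 skeletal muscle fibre genes were measured, at a median log2 intensity of 15.13. Their summed intensity was 18.47 to 18.56 in controls and 18.50 to 18.58 in knockouts. All 10 had higher means in knockouts, with a median difference of 0.04 (log2). Markers of other cells had lower means in knockouts: 10 of 10 fibroblast genes (summed 14.75 to 15.05 in controls, 14.16 to 14.62 in knockouts), 8 of 8 tendon genes (14.82 to 15.12 and 13.90 to 14.89), 8 of 8 macrophage genes (13.08 to 13.64 and 12.57 to 13.45) and 4 of 4 smooth muscle genes (11.74 to 12.05 and 11.18 to 11.76). Endothelial genes were lower for 7 of 8 (11.80 to 12.04 and 11.60 to 11.82), slow fibre genes for 7 of 7 (16.50 to 17.32 and 15.95 to 17.18) and adipocyte genes for 2 of 3 (14.06 to 14.27 and 13.93 to 14.33). Red blood cells had 1 measured marker, Alas2 (3.60 to 4.83 and 4.15 to 5.39). Plin1, Cfd, Lep, Cnn1, Hba-a1, Hbb-b1 and Slc4a1 were not measured above the filter by a probe set of their own. Of all these markers, Col1a2 of the fibroblast list passed the test. In tissue RNA a change in the number of cells of a type cannot be told from a change in RNA per cell, and the part of these markers in the polyamine values was not tested. The hybridisation controls, 18 probe sets for bacterial RNA and for Cre of phage P1, averaged 13.49 ± 0.11 on the arrays of control mice (log2, SD, n = 5). On those of knockout mice they averaged 13.53 ± 0.20 (SD, n = 5), and the exact permutation p was 0.730. All 10 mice carried a Cre transgene, and its part in these control values was not tested. The difference between 3′ and 5′ Gapdh probe sets, a measure of RNA integrity, was 0.49 ± 0.03 and 0.45 ± 0.03 (exact permutation p = 0.0317, unadjusted), and its part was not tested.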

How the data were processed

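Gastrocnemius RNA of 5 knockout and 5 control mice was measured on 1-colour arrays of 45101 probe sets. The deposited values are linear intensities that the authors made with GCRMA, per the submitters' processing notes, a method that corrects background, normalizes between arrays and summarises probes. Which version and which settings they used is not given in the sources used here. Dim values are compressed near the floor, and the number of arrays limits the precision. Log2 was taken with no further normalization. Names came from the platform's annotation (34945 with 1 symbol, 932 with several, 9160 not listed, 64 controls), and matching to the GRCm38.p6 gene table changed 0 symbols.

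Probe sets with a mean log2 of at least 4 (21154, for 10704 genes) were fitted by limma's lmFit and eBayes (limma 3.58.1, R 4.3.3, two-sided, Benjamini-Hochberg over all 21154, threshold 0.05), and the fit was tested on simulated data. Per the series' design text the arrays are of separate mice. The exact permutation test over 252 assignments of arrays cannot give less than 0.00794. Every member probe set is reported, with the brightest per gene for other genes; of each pathway list the 2 genes of lowest p are named. Members and lists were chosen with earlier results of these data known. Same-numbered arrays had deviation correlations from -0.51 to 0.62, so the numbers were not taken as pairs. Alternatives covered filter, floor, normalization, variance model, array weights, replicate block, hybridisation controls and each array left out. Figures used matplotlib 3.10.9 in Python 3.11.15.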

Additional observations from a re-analysis of the deposited data

How the results depend on the processing

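No member or shared probe set passed the threshold under any of the 20 alternatives (0 of 280 values, lowest adjusted p 0.142, for Odc1 with a variance trend and robust fit, limma). Of the 280 values 270 kept their direction. The 10 that did not were of Azin1 probe sets 1 and 2 and the Oaz1 and Oaz1-ps probe set. Their differences in the main fit were near 0, at -0.04, -0.07 and -0.03. With 1 array left out, Azin1 probe set 1 ran from -0.10 to 0.025, Azin1 probe set 2 from -0.20 to 0.041 and the Oaz1 and Oaz1-ps probe set from -0.11 to 0.050. Without the 3 arrays of highest hybridisation controls (control 3, knockouts 1 and 3) Azin1 probe set 2 gave 0.15 and the Oaz1 and Oaz1-ps probe set 0.024, and with those controls as a covariate the latter gave 0.0086. The Odc1 probe sets stayed between 0.54 and 0.95, with 58 of 60 values at an unadjusted p under 0.05; without those 3 arrays probe sets 2 and 3 were not (0.68 and 0.59, adjusted p = 0.431 and 0.474, limma). The shared Sms probe sets stayed between 0.22 and 0.52, with 60 of 60. For Smox 6 of 40 values were at an unadjusted p under 0.05. Without control 4 both Smox probe sets reached it (0.36 and 0.76), and likewise without control 5 (0.37 and 0.75). Without control 3 neither did (0.20 and 0.34, unadjusted p = 0.169 and 0.177, limma). The highest unadjusted p for Smox was 0.311 (limma), without the 3 arrays of highest hybridisation controls. Over all probe sets the count of 21 became 11 with no filter, 36 after quantile normalization, 58 with a variance trend and robust fit, 67 with array weights, 92 with the hybridisation control covariate, 7 without 3 arrays and 1 to 17 with each array left out (14 without control 1, 17 without knockout 5 and 1 to 4 without any other). Median centring gave 28, with 17 higher and 11 lower. The replicate block left 1 probe set past the threshold and no polyamine probe set; same-numbered arrays had correlations of deviations of -0.51, 0.13, 0.62, -0.20 and 0.19, so their numbers were not taken as pairs. The causes were not tested. Signal near the floor limits Azin1 probe set 3.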
